A study of Homo sapiens with 34 samples.

Results

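The cytosolic ribosomal protein genes were followed across edits made with Cas9 and Cas12a in hTERT RPE-1, human retinal pigment epithelial cells made immortal with telomerase, from which total RNA was sequenced after ribosomal RNA had been depleted. They were chosen by name, as symbols made of RPL or RPS and a number with at most an A or X behind it, together with RPLP0, RPLP1, RPLP2 and RPSA. This gave 77 of the 29324 genes with a listed intron, 46 of the large and 31 of the small ribosomal subunit, and all 77 passed the filter on low counts. Paralogues with longer names and the ubiquitin-like fusion FAU lie outside the rule.

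The 34 libraries came from 17 hybrid guides (hgRNAs), each a single RNA that carries one guide for either nuclease and so directs a pair of cuts, and every hgRNA was sequenced in biological duplicate. Deletions in introns of DDX5 (hgRNAs 1 and 2), FNBP4 (hgRNAs 1 and 2) and HNRNPD (1 hgRNA) were compared with controls. So were deletions across an exon with a premature stop codon (PTC exon) in DDX17 (hgRNAs 1 and 2), HDAC7 (hgRNAs 1 and 2) and FNBP4 (hgRNAs 3 and 4), and knockouts of DDX5, DDX17, FNBP4 and HDAC7. Deletions had 4 libraries each, the HNRNPD deletion and every knockout had 2, and the controls, cut between genes with 2 other hgRNAs, had 4. A knockout hgRNA joined an exonic Cas9 guide of the TKOv3 library to a Cas12a guide between genes. All groups, controls included, received the hgRNA by lentivirus, passed 72 h of selection in 20 µg/ml puromycin and grew for 4 more days. The cells are pools transduced at under 1 virus per cell and are not described as clones. Both HDAC7 deletion hgRNAs share a Cas9 guide, as do FNBP4 hgRNAs 2 and 3, and the labels give the FNBP4 and HDAC7 knockouts the same Cas9 guide.

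Each cytosolic ribosome holds a single copy of almost every one of these proteins, and the stalk proteins RPLP1 and RPLP2, which recruit elongation factors, are the exception. The proteins are imported into the nucleus and built into subunits on ribosomal RNA in the nucleolus. Unassembled ones are degraded, and RPL5 and RPL11 that are not in ribosomes can bind MDM2, the ligase that restrains p53. Their mRNAs are short and abundant and begin with a C followed by pyrimidines, the terminal oligopyrimidine motif through which mTOR and LARP1 control their translation. Several of the genes carry small nucleolar RNAs (snoRNAs) in their introns.

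Expression was measured as reads across spliced junctions summed per gene, 12353936 to 20233610 per library, and scaled for library size (CPM). A gene with more introns collects more such reads, so levels are compared between genes only in the authors' RPKM, which is scaled for length. Adjusted p-values are from limma over all 12081 genes tested, a gene past 0.05 is called, and log2 fold changes are given with their standard error (SE). Of the targeted mRNAs, DDX5 fell in its knockout (log2 fold change -1.87, adjusted p = 9.76e-07) and DDX17 in its own (-0.42, adjusted p = 0.0157). Neither FNBP4 (-0.31, adjusted p = 0.546) nor HDAC7 (-0.13, adjusted p = 0.717) was called lower in the libraries labelled as its knockout. With its PTC exon deleted, FNBP4 rose (1.63, adjusted p = 1.16e-05). In the other deletions the targeted gene was not called, at -0.43 (adjusted p = 0.0514) for DDX5, 0.05 for DDX17, 0.37 for FNBP4 with its intron deletion, -0.27 for HDAC7 and 0.30 for HNRNPD (adjusted p = 0.186 to 0.812 for these 4). In the authors' RPKM of the controls the epithelial keratins KRT18 and KRT8 stood at 250.6 and 223.24, while of 10 pigment epithelium genes 7 were below 1 RPKM, with RPE65, RLBP1 and TTR at 0.05, 0.03 and 0, and MITF, OTX2 and BEST1 were at 9.14, 6.39 and 1.96. Blood and endothelial markers reached at most 0.06, and of 3 neuron markers SYT1 was at 13.76, SNAP25 at 2.47 and RBFOX3 at 0. The 4 knockout libraries of replicate 1 stand apart from all others in these genes, as do 3 libraries of replicate 2 (control hgRNA 1, DDX17 deletion hgRNA 1 and HDAC7 deletion hgRNA 1), and results that rest on them are also given without them. In bulk RNA, fewer cells with a transcript and less of it per cell cannot be told apart.

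The first bases of the transcripts are shown because these genes are known for an oligopyrimidine motif there. They are given for the members that moved most and for a pair in which no such motif was found at the listed start. That does not show that the mRNAs of this pair lack it. Each window holds 30 bases around the RefSeq start (GRCh38.p14), read on the gene's strand, and capitals mark the longest run that begins with C within 10 bases of the start and holds only C and T. RPS14 is shown at chr5:150449725-150449754, minus strand, RPL9 at chr4:39458908-39458937, minus strand, and RPS16 at chr19:39435935-39435964, minus strand. RPS27 is at chr1:153990747-153990776, plus strand. RPS29, at chr14:49598696-49598725, minus strand, and RPL13, at chr16:89560642-89560671, plus strand, have no such run of 5 or more bases, and their letters are left small.
RPS14: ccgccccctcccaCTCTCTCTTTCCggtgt
RPL9: gtacgtaatgacgacagacgttCTTTCTTT
RPS16: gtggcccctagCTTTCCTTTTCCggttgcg
RPS27: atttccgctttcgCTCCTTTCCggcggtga
RPS29: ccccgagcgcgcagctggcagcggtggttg
RPL13: ggccctgctatcatcccagagtgcattgcg
Such a run of at least 5 bases was found for 55 of the 62 members with a RefSeq window (88.7%). Among all 27305 promoter windows 9091 (33.3%) had one. The search used only the gene's own strand and does not say that a start site is used in these cells.

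In control cells every member was abundant. The authors' RPKM of the controls ran from 71.04 to 3815.33 with a median of 643.78, against a median of 12.32 over the 12695 genes listed above 1 RPKM, and 19 members were above 1000. The highest were RPL41, which codes for the smallest ribosomal protein (3815.33 RPKM), RPS23 at the decoding centre (2085.18 RPKM) and RPL13A (1947.91 RPKM). RPS26 (71.04 RPKM), RPL36A (148.93 RPKM) and RPS29 (154.78 RPKM) were the lowest, 53.7-fold between the ends. Proteins that enter the ribosome in equal numbers thus came from mRNAs listed at unequal levels. RPL3, near the peptidyl transferase centre, had 1088.31 RPKM, and RPL10, a late-joining protein of the large subunit, had 1188.78 RPKM. The MDM2 binders RPL5 and RPL11 had 667.82 and 183.05 RPKM. RPS6, the substrate of S6 kinase, had 687.37 RPKM, RPS24 had 657.53 RPKM and RPS27A, made as a fusion to ubiquitin, had 296.13 RPKM. Of the stalk, RPLP0 had 1595.61, RPLP1 744.95 and RPLP2 711.71 RPKM. Many members have processed pseudogenes (3 named ones for RPS14, 66 for RPL21), and how the authors' counting shared reads with them is not given in the sources used here.

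The members took 7.17 to 7.86% of all spliced reads in the 4 knockout libraries of replicate 1, against 5.65 to 5.88% in the knockout libraries of replicate 2. The 22 deletion libraries held 5.19 to 6.85% with a median of 5.68%, and the controls held 5.62, 6.32, 5.67 and 5.63%. No other library reached the lowest knockout library of replicate 1. Over the 4 knockouts 76 of 77 members were called higher in replicate 1 than in replicate 2, where 16.7% of all genes were called higher. The median log2 difference was 0.42 against 0.04. The smallest differences were those of RPL22 (0.16) and RPL11 (0.17), and that of RPL11 was not called (adjusted p = 0.0545). Of 76 mitochondrial ribosomal protein genes 40 were called higher, with a median of 0.27. Of 20 translation factors with oligopyrimidine mRNAs 15 were called higher, with a median of 0.32. This comparison was made after the shares had been seen and is a description. The labels give no batch, date or run, so what sets these 4 libraries apart from the other 4 knockout libraries was not tested.

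**Figure D1:**
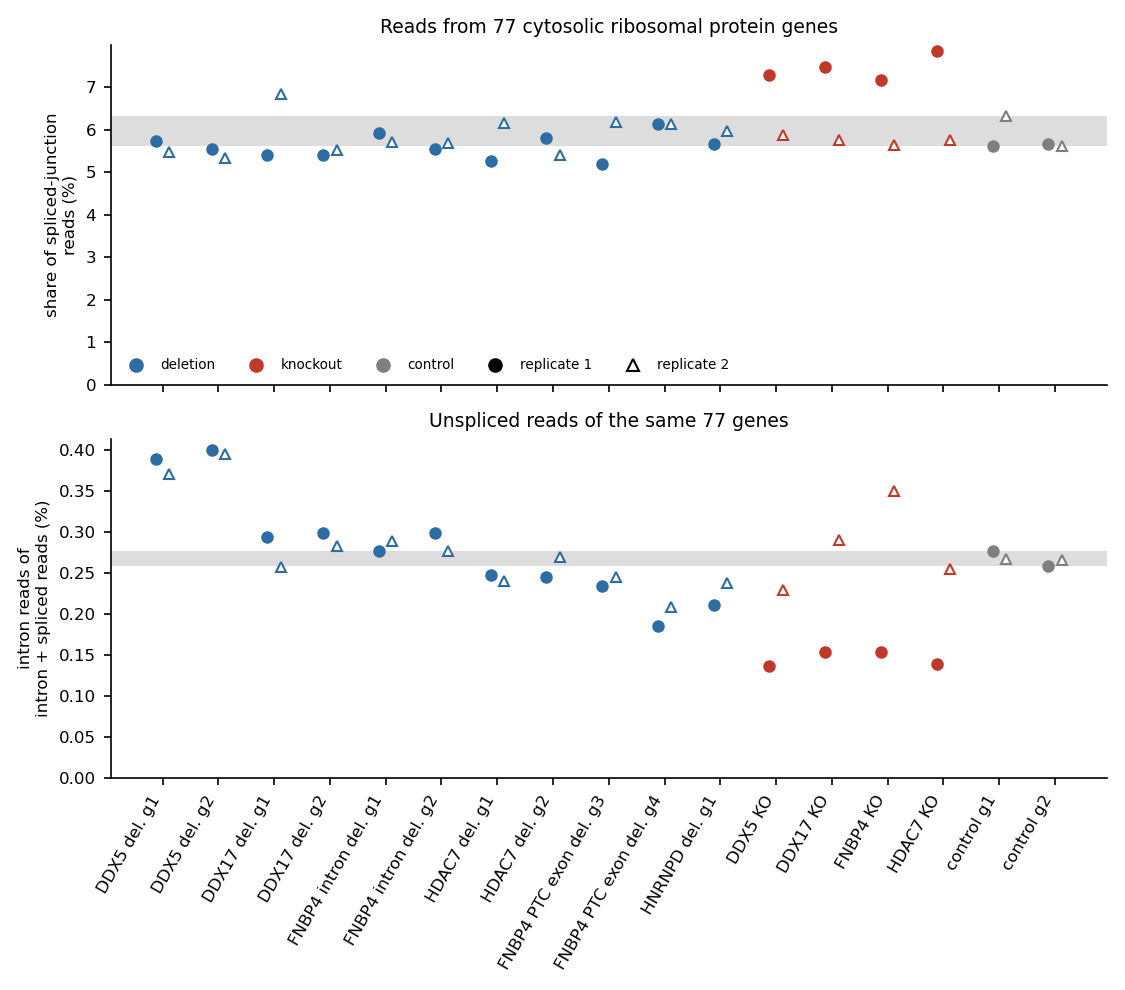
Share of spliced reads from the 77 ribosomal protein genes (percent, upper panel) and their intron read share (percent, lower panel) in each of the 34 libraries, by hgRNA, with filled circles for replicate 1, open triangles for replicate 2 and a grey band for the range of the controls. The 4 knockout libraries of replicate 1 lie above all others in the upper panel, at 7.17 to 7.86%, and below all others in the lower panel, at 0.137 to 0.154%.

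In the knockouts the ribosomal protein genes that limma called were all higher than in controls. The DDX5 knockout had 8 of 77 called (10.3% of all genes in either direction, 6.38% higher and 3.89% lower) and the HDAC7 knockout 5 (6.84%, 4.15% higher and 2.69% lower). The DDX17 knockout had 2 (1.89%, 0.985% higher and 0.902% lower) and so had the FNBP4 knockout (8.45%, 4.83% higher and 3.63% lower). Counted in either direction, the members' share was near that over all genes in the DDX5, DDX17 and HDAC7 knockouts. Counted as higher alone, it was larger in those knockouts. In the FNBP4 knockout 2 of 77 is a smaller share than over all genes by either count. The FNBP4 knockout had 8 with a trend on GC content and length removed (13.9% of all genes), 5 without the 3 replicate 2 libraries that stood apart (9.98%) and 4 with a replicate block (9.79%). The authors' deposited table called 9, 5, 4 and 7 members higher in the DDX5, DDX17, FNBP4 and HDAC7 knockout (6.18%, 1.48%, 6.8% and 4.26% of all genes in either direction). The authors' deposited table also called RPS29 lower in the DDX5 knockout (-0.55 on the log2 scale, FDR 0.002615), where limma gave -0.18 without a call (adjusted p = 0.642). The members' median log2 fold change was 0.23 in the DDX5, 0.21 in the DDX17, 0.16 in the FNBP4 and 0.27 in the HDAC7 knockout, while the median over all genes lay between -0.01 and 0.01. Between 65 and 68 of 77 members had a positive value in each. The controls are the same 4 libraries in every one of these comparisons.

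RPS14, a protein of the small subunit's platform whose loss on one chromosome underlies the anaemia of the 5q- syndrome, rose in all 4 knockouts. In the DDX5 knockout it stood at 4880 and 3372 CPM, in the DDX17 knockout at 3892 and 2958 CPM, in the FNBP4 knockout at 3783 and 2809 CPM and in the HDAC7 knockout at 4709 and 3019 CPM, replicate 1 before replicate 2. The controls had 1809, 2057, 1800 and 2005 CPM. Both libraries of every knockout lay above all 4 controls, and replicate 1 lay above replicate 2 each time. Log2 fold changes were 1.08 (SE 0.174, adjusted p = 0.000359) in the DDX5, 0.83 (SE 0.173, adjusted p = 0.0123) in the DDX17, 0.77 (SE 0.173, adjusted p = 0.00632) in the FNBP4 and 0.98 (SE 0.173, adjusted p = 0.00156) in the HDAC7 knockout. The authors' deposited table, with both replicates combined, gave 1.14, 0.84, 0.82 and 1.04 on the log2 scale for the same knockouts. With the median over a gene's introns in place of the sum, RPS14 stood 0.45 to 0.76 higher and was not called in any of the 4 (adjusted p = 0.0648 to 0.5).

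RPL9, a large-subunit protein near the binding site of translation factors, also rose in all 4. It had 2219 and 1620 CPM in the DDX5, 2198 and 1634 CPM in the DDX17, 2091 and 1565 CPM in the FNBP4 and 2259 and 1725 CPM in the HDAC7 knockout, against 1232, 1240, 1245 and 1357 CPM in the controls. No knockout library overlapped the controls. The log2 fold changes were 0.58 (adjusted p = 0.00728), 0.58 (adjusted p = 0.0246), 0.51 (adjusted p = 0.0179) and 0.64 (adjusted p = 0.00592), in that order of knockouts. With the median over introns it was called in the HDAC7 knockout alone (0.53, adjusted p = 0.0298). The gene LIAS lies on the opposite strand of RPL9, and whether the counting used strand is not given in the sources used here.

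RPS16, a protein of the small subunit's head, rose in the DDX5 knockout (1761 and 1323 CPM, log2 fold change 0.93, adjusted p = 0.00393) and the HDAC7 knockout (1920 and 1206 CPM, 0.92, adjusted p = 0.00636), against 773.2, 909.3, 727.1 and 812.7 CPM in controls. In the DDX17 knockout it had 1480 and 1108 CPM (0.67, adjusted p = 0.0805) and in the FNBP4 knockout 1368 and 1068 CPM (0.59, adjusted p = 0.0632), again with no overlap with the controls but without a call. RPL22, which binds RNA outside the ribosome too, rose in the DDX5 knockout (0.54, adjusted p = 0.0153) and the HDAC7 knockout (0.49, adjusted p = 0.0362). RPS18 (0.64, adjusted p = 0.0334), RPL35 (0.64, adjusted p = 0.044) and RPL10 (0.39, adjusted p = 0.0441) were called in the DDX5 knockout alone among the knockouts, and their differences between knockouts were not tested. With the median over introns RPS16 was called in neither knockout (0.51 and 0.52), and RPL10 was at -0.03 in the DDX5 knockout.

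These calls lean on replicate 1. Leaving out its own replicate 1 alone ended the call of RPS14 in each knockout (0.55 to 0.82, adjusted p = 0.0558 to 0.38) and that of RPL9 (adjusted p = 0.241 to 0.591). RPS14 in the DDX17 knockout was also lost without control hgRNA 2 replicate 1 (adjusted p = 0.055). RPL9 was also lost in the DDX17 knockout without either replicate of control hgRNA 1 or without control hgRNA 2 replicate 1 (adjusted p = 0.0608 to 0.099). In the FNBP4 knockout it was lost without control hgRNA 1 replicate 2 (adjusted p = 0.0533) or control hgRNA 2 replicate 1 (adjusted p = 0.0777). Of the 6 fits that left out a library, RPL35 lost its call in the DDX5 knockout in all 6, and RPL10 and RPS18 in 5. RPL22 lost its call in 2 of 6 in the DDX5 knockout and in 4 of 6 in the HDAC7 knockout. Without the 4 knockout libraries of that replicate each knockout is a single sample, assumed to vary like the other groups, and the members' medians became 0.03, -0.03, -0.05 and 0.00 for the DDX5, DDX17, FNBP4 and HDAC7 knockout. RPS14 was then the one member called in the DDX5 knockout (0.80, adjusted p = 0.00964, 1.6% of all genes called) and RPL9 the one called in the HDAC7 knockout (0.42, adjusted p = 0.0473, 0.713% of all genes). The DDX17 and FNBP4 knockouts had none (0.34% and 2.03% of all genes), with RPS14 at 0.61 (adjusted p = 0.121) and 0.53 (adjusted p = 0.0748). When the 3 replicate 2 libraries that stood apart were left out too, RPS14 was called in all 4 knockouts at 0.86, 0.67, 0.59 and 0.70.

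**Figure D2:**
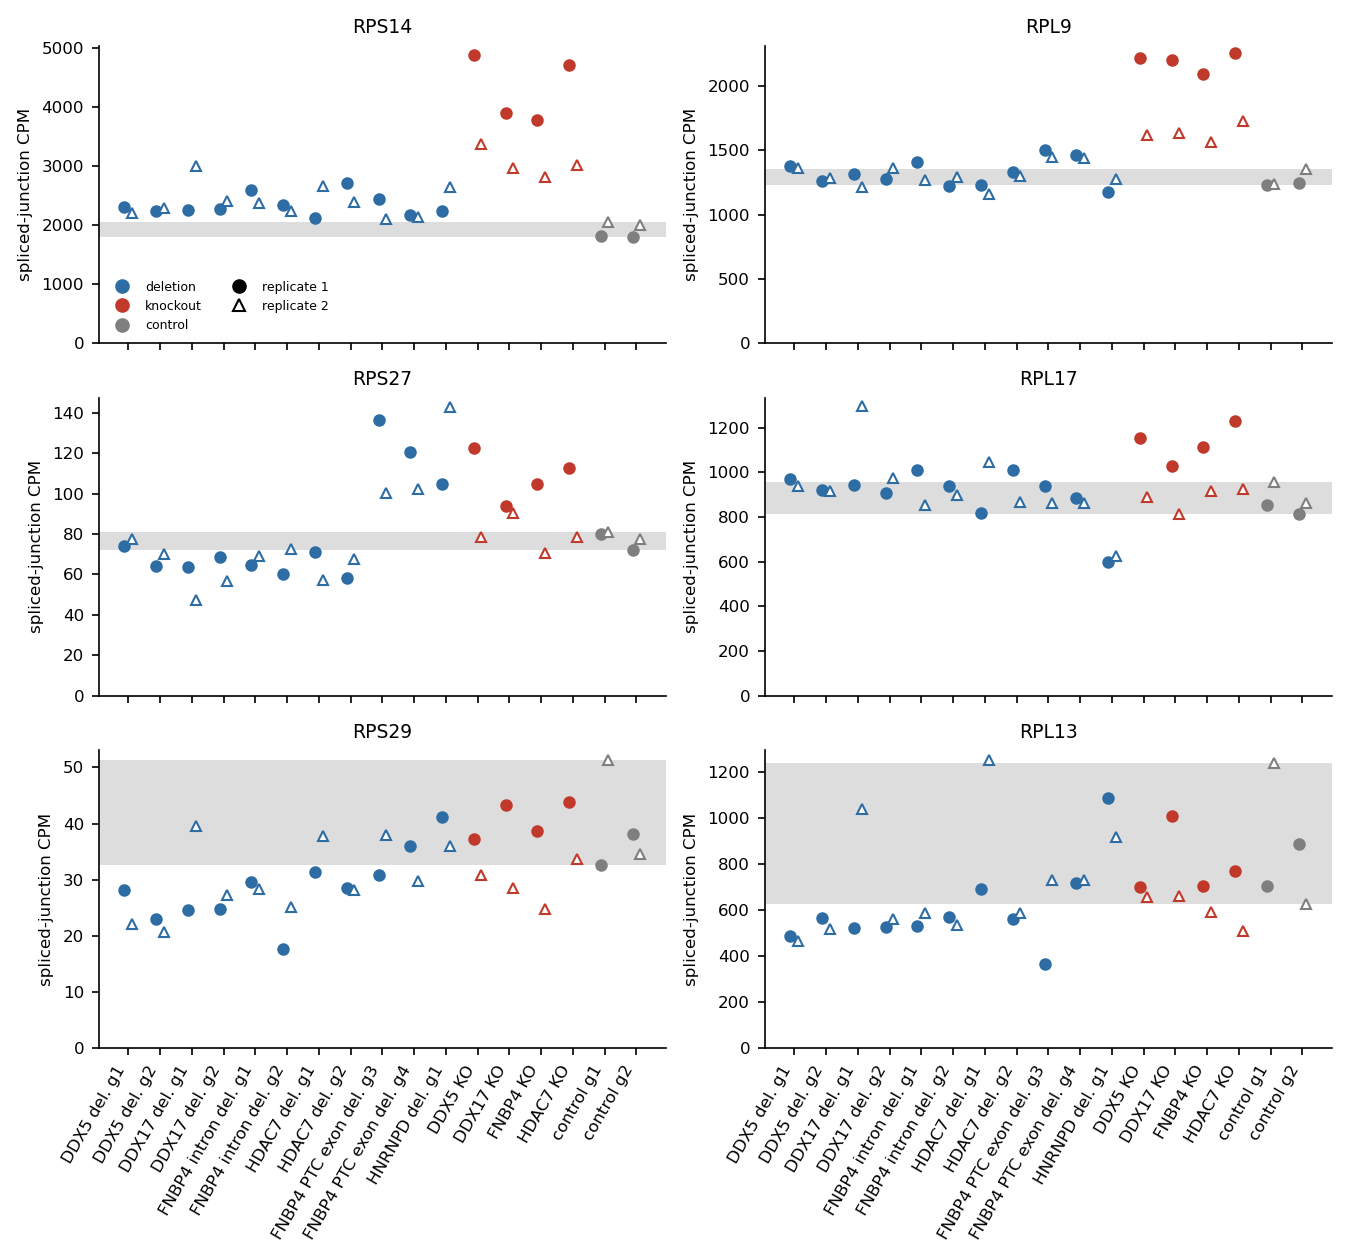
Spliced-read CPM of RPS14, RPL9, RPS27, RPL17, RPS29 and RPL13 in every library, by hgRNA, with filled circles for replicate 1, open triangles for replicate 2 and a grey band for the range of the 4 controls. RPS14 lies above the band in all 30 edited libraries and RPL17 lies below it in both HNRNPD deletion libraries, at 598.2 and 627.7 CPM.

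RPS14 was the one member that stood above all 4 controls in every edited library. Of the 12081 genes 2 did so, RPS14 among them (0.0166%). Its 22 deletion libraries held 2109 to 2989 CPM with a median of 2303, against a highest control of 2057 CPM. In the deletions the log2 fold changes were 0.21 to 0.37 and none was called (adjusted p = 0.143 to 0.277), and all rest on the same 4 controls. In the authors' deposited RPKM, RPS14 was above the controls' 1930.79 in every hgRNA except FNBP4 hgRNA 3, where it was listed at 1824.51. RPL14 was above all controls in 27 of 30 edited libraries, and RPS25 was below all controls in 23 of 30. Both were picked after their values were seen, and neither was called against controls in any edit. How many of all genes reach such counts was not determined.

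In the deletions the fit over all libraries called at most 3 members per edit. The DDX5 deletion had 3 called, all lower (17% of all genes in either direction, 7.81% higher and 9.17% lower), and a members' median of -0.09. With only the 8 libraries of this comparison in the fit 23 members were called, 3 higher and 20 lower, where 32% of all genes were called. RPS29, a zinc-binding protein of the small subunit's head, had 28.2, 22.2, 22.96 and 20.6 CPM in the DDX5 deletion, against 32.6, 51.4, 38.1 and 34.6 CPM in controls. The groups did not overlap, and the log2 fold change was -0.72 (SE 0.181, adjusted p = 0.00812). Without control hgRNA 1 replicate 2, the highest control, it was -0.57 (adjusted p = 0.0581), and with the median over introns it stayed called (-0.71, adjusted p = 0.0179). The authors' deposited table called RPS29 lower with both DDX5 hgRNAs, at -0.66 (FDR 8.363e-05) and -0.42 (FDR 0.03647) on the log2 scale. It was the sole member called there, with 8.26% and 5.48% of all genes called. RPL13, a large-subunit protein, had 488.6, 466.1, 567.9 and 518.9 CPM in the DDX5 deletion, against 705.2, 1238, 888.9 and 626.0 CPM in controls (-0.71, SE 0.229, adjusted p = 0.0335). Without control hgRNA 1 replicate 2, at 1238 CPM, the value was -0.52 (adjusted p = 0.201), and with the median over introns -0.54 (adjusted p = 0.143). Its call was lost in 6 of the 8 fits that left out a library (adjusted p up to 0.201). RPS21 averaged 89.8 ± 8.40 CPM in the DDX5 deletion and 118.8 ± 11.1 CPM in controls (SD, n = 4 each, log2 fold change -0.40, adjusted p = 0.0373). Its call was lost in 7 of the 8 fits that left out a library.

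RPS29 was also the one member called in the FNBP4 intron deletion (3.51% of all genes in either direction, 1.95% lower). It had 29.7, 28.3, 17.7 and 25.1 CPM there, all below the lowest control at 32.6 CPM (-0.64, SE 0.179, adjusted p = 0.0468). Its call was lost in 7 of the 8 fits that left out a library (adjusted p up to 0.27). Without the 3 replicate 2 libraries that stood apart it was -0.48 (adjusted p = 0.139), while in the DDX5 deletion it was then -0.56 (adjusted p = 0.0297). In the authors' deposited RPKM, RPS29 was below the controls' 154.78 in all 15 hgRNA columns, at 90.24 to 144.05. The authors' log2 fold changes do not follow those columns throughout. For FNBP4 hgRNA 2 the RPKM of RPS29 gives a log2 ratio of -0.78 where the table's own log2 fold change is 0.04. The gene LRR1 overlaps RPS29 on the opposite strand, and 32 pseudogenes carry its name.

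The FNBP4 PTC exon deletion had 3 members called, all higher (26.8% of all genes in either direction, 13.7% higher). The 3 of 77 called higher are a smaller share than over all genes. The authors' deposited table called RPL21 higher with either hgRNA, and with hgRNA 3 it also called 3 members lower, RPL36 and RPL37 among them (14.4% and 7.53% of all genes called with hgRNAs 3 and 4). The median of the members was 0.09, with 53 of 77 positive. RPS27, a zinc-finger protein of the small subunit, had 136.6, 100.1, 120.5 and 102.0 CPM, against 79.8, 81.2, 71.9 and 77.7 CPM in controls. All 4 deletion libraries were above all controls (0.55, SE 0.156, adjusted p = 0.0121). RPL21 averaged 404.1 ± 67.5 CPM in the deletion and 309.2 ± 14.8 CPM in controls (SD, n = 4 each, 0.37, adjusted p = 0.0154). RPL22 had 408.1, 331.3, 333.0 and 335.0 CPM, against 282.1, 286.3, 252.0 and 306.9 CPM in controls (0.32, adjusted p = 0.0408). In all 3 genes hgRNA 3 replicate 1 was the highest library. Without it none was called, at 0.41 (adjusted p = 0.0998), 0.22 (adjusted p = 0.168) and 0.21 (adjusted p = 0.237) for RPS27, RPL21 and RPL22. Of the 8 fits that each left out a library, 3 lost the call of RPS27, 4 that of RPL21 and 6 that of RPL22. That library also had the lowest share of spliced reads from the members, 5.19%, against 6.13 to 6.19% in the other 3. With the median over introns none of the 3 was called either (adjusted p = 0.0515 to 0.24). The part of that library's make-up in these values was not tested.

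In the HNRNPD deletion, where 8.9% of all genes were called, 1 member was higher and 1 lower (4.68% and 4.22% of all genes). RPL17, which lines the exit tunnel of the large subunit, had 598.2 and 627.7 CPM, against 852.8, 955.8, 811.8 and 862.4 CPM in controls (-0.50, SE 0.145, adjusted p = 0.0309). No library of any other edit was as low. The call was lost when either HNRNPD deletion library was left out, at -0.48 (adjusted p = 0.193) and -0.56 (adjusted p = 0.104), without control hgRNA 1 replicate 2 (-0.48, adjusted p = 0.0535) or control hgRNA 2 replicate 2 (-0.50, adjusted p = 0.0612), and with the median over introns (-0.28, adjusted p = 0.331). Reads of RPL17 may be shared with the readthrough gene RPL17-C18orf32 and with 26 named pseudogenes. RPS27 had 104.5 and 142.6 CPM in the HNRNPD deletion, against 71.9 to 81.2 CPM in controls (0.65, SE 0.19, adjusted p = 0.0326). Its call was lost in every fit that left out a library, and without replicate 2 the value was 0.41 (adjusted p = 0.446). The authors' deposited table called RPL11 and RPL6 higher there (5.07% of all genes in either direction) and neither RPL17 nor RPS27.

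No member was called by limma in the DDX17 deletion (4.83% of all genes called, 2.38% higher and 2.45% lower, 9 members at an unadjusted p under 0.05) or the HDAC7 deletion (1.84% of all genes, 4 members). limma without voom weights called none in either. The members' medians were -0.03 and -0.02. The authors' deposited table called no member in these deletions either (1.53% and 1.55% of all genes with DDX17 hgRNAs 1 and 2, 1.11% and 0.225% with HDAC7 hgRNAs 1 and 2).

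**Figure D3:**
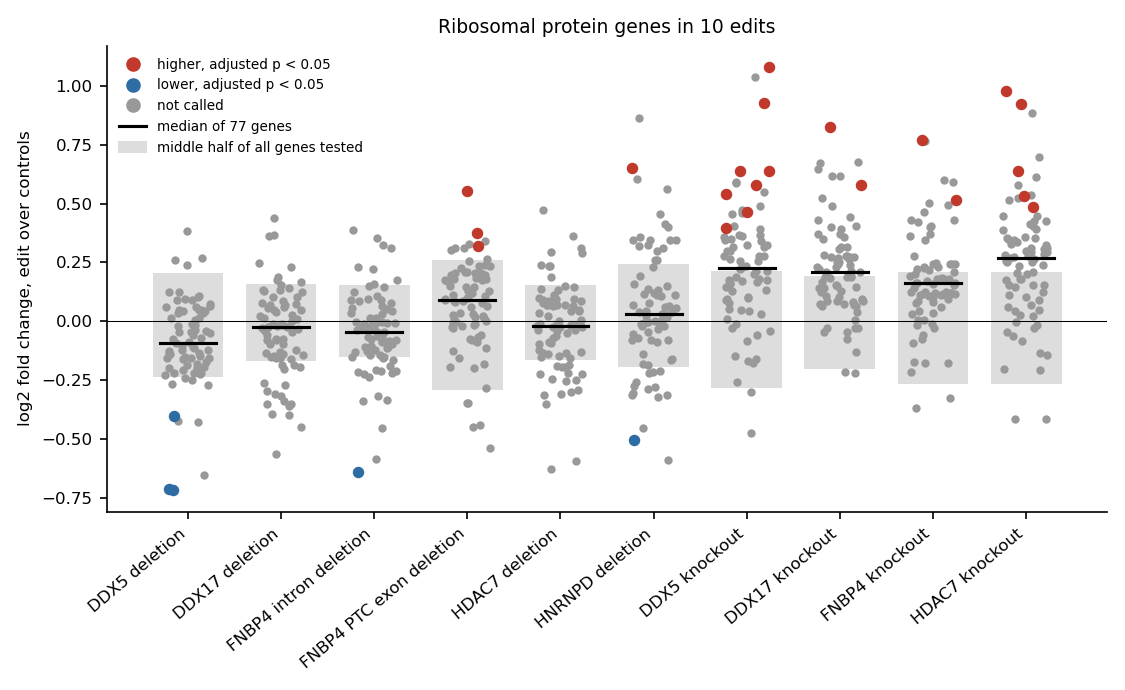
Log2 fold change against the 4 control libraries of each of the 77 ribosomal protein genes (points) in the 10 edits, with called genes in colour, the members' median as a line and the interquartile range of all genes as a grey band. In the 4 knockouts the medians lie between 0.16 and 0.27, and in the 6 deletions between -0.09 and 0.09.

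Other well-known members were not called against controls. RPL5 was at 0.24 when the FNBP4 PTC exon was deleted (adjusted p = 0.0615) and at 0.25 to 0.29 in the knockouts (adjusted p = 0.121 to 0.29). RPL11 was at 0.56 in the HNRNPD deletion (adjusted p = 0.0746). RPL3 lay between -0.07 and 0.31, RPS6 between -0.08 and 0.32, RPS24 between -0.31 and 0.42 and RPS27A between -0.29 and 0.33 over the 10 edits. The stalk genes were not called either: in the DDX5, DDX17, FNBP4 and HDAC7 knockout RPLP0 stood at 0.49, 0.24, 0.25 and 0.45, RPLP1 at 0.17, 0.13, 0.12 and 0.24, and RPLP2 at 0.37, 0.28, 0.03 and 0.26. A value under the threshold does not show that a gene was unchanged.

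Edits were also compared with each other, where the controls drop out. In the FNBP4 PTC exon deletion 8 members were called higher than in the FNBP4 intron deletion and none lower (30.3% of all genes in either direction, 14.9% higher). RPS27 led, with 100.1 to 136.6 CPM in the PTC exon deletion and 64.6, 69.0, 60.5 and 72.8 CPM in the intron deletion (0.77, SE 0.157, adjusted p = 0.00064). The others were RPL23, RPL23A, RPL34, RPL36A, RPL10, RPS15A and RPS6, with differences of 0.29 to 0.36. RPS27 stayed called in all 8 fits that left out a library (0.65 to 0.88, adjusted p up to 0.00705), while each of the other 7 genes lost its call in 6 or 7 of them. With the median over introns none of these 8 was called, and RPS27 was at 0.54 (adjusted p = 0.0562). The deletions of DDX5 and DDX17 did not differ past the threshold in any member (0 called by limma, 5.3% of all genes, 2.19% higher and 3.1% lower, 0 members at an unadjusted p under 0.05). Neither did limma without voom weights call one.

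Between a deletion and the libraries labelled as the knockout of the same gene, every member called was lower in the deletion. For FNBP4 and HDAC7 the targeted mRNA was not called lower in those libraries. Of the 77, 5 were lower in the DDX5 deletion than in the DDX5 knockout (4.43% of all genes in either direction, 1.76% higher and 2.67% lower) and 7 for DDX17 (8.83%, 4.19% higher and 4.64% lower). For the FNBP4 PTC exon there was 1 (30.5%, 14.9% higher and 15.6% lower) and for HDAC7 there were 5 (6.55%, 2.76% higher and 3.79% lower). In either direction the members' share was near that over all genes for DDX17 and HDAC7 and smaller for the FNBP4 PTC exon. Counted as lower alone, it was larger for DDX5, DDX17 and HDAC7. Of 6 fits that left out a library, 0 kept the count for DDX5 or for DDX17 within 1.5 times. RPS14 had 2263 ± 49.2 CPM (SD, n = 4) in the DDX5 deletion and 4126 ± 1066 CPM (SD, n = 2) in the DDX5 knockout (-0.84, adjusted p = 0.00569). It was also lower in the FNBP4 PTC exon deletion (-0.56) and the HDAC7 deletion (-0.62) than in the matching knockout. RPL9 was lower in the deletions of DDX5 (-0.52), DDX17 (-0.56) and HDAC7 (-0.66). Without the 4 knockout libraries of replicate 1 the counts were 0 for DDX5 (1.05% of all genes) and 0 for DDX17 (2.54%). For the FNBP4 PTC exon they were 2 higher, RPS25 and RPS27 (18.3%), and for HDAC7 1 lower, RPL9 (0.73%).

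Members varied in their own ways between libraries. Over all 34, RPL29 spanned the widest range, 14.1 to 76.4 CPM or 5.43-fold, and RPL13A (1504 to 7176 CPM), RPL36 and RPL39 were also among the widest. The steadiest were RPL5 (1.51-fold), RPS25 (1.54-fold) and RPS26 (1.55-fold). The median SD between replicates of a group was 0.23 on the log2 scale for the members, 0.23 for all 12081 genes tested and 0.17 for the 4857 other genes at least as abundant as the least abundant member.

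The widest spread over the members was in DDX17 deletion hgRNA 1 replicate 2 and HDAC7 deletion hgRNA 1 replicate 2. The interquartile range of the members' deviations from the controls was 0.89 and 0.72 in these libraries and 0.59 in FNBP4 PTC exon deletion hgRNA 3 replicate 1, against 0.0597 to 0.373 in the other 31. In DDX17 deletion hgRNA 1, RPL29, RPL39 and RPL26 were 2.03, 1.47 and 1.45 lower on the log2 scale in replicate 2 than in replicate 1, and RPL13A, RPS28 and RPS19 were 1.63, 1.35 and 1.27 higher. In HDAC7 deletion hgRNA 1 the same genes differed by -1.95, -1.22, -1.14, 1.19, 0.83 and 0.99, and in control hgRNA 1 by -0.31, -0.66, -0.42, 0.71, 0.77 and 0.63. Across the 77 genes, which are not independent of each other, the replicate differences of the DDX17 and HDAC7 hgRNA 1 had a Pearson r of 0.98, and those of control hgRNA 1 an r of 0.92 and 0.89 with them. FNBP4 PTC exon deletion hgRNA 3 did not share the pattern (r of -0.01 to 0.09). The pattern was present in a control hgRNA as well as in edited ones, and what these libraries share beyond the replicate number was not tested.

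**Figure D4:**
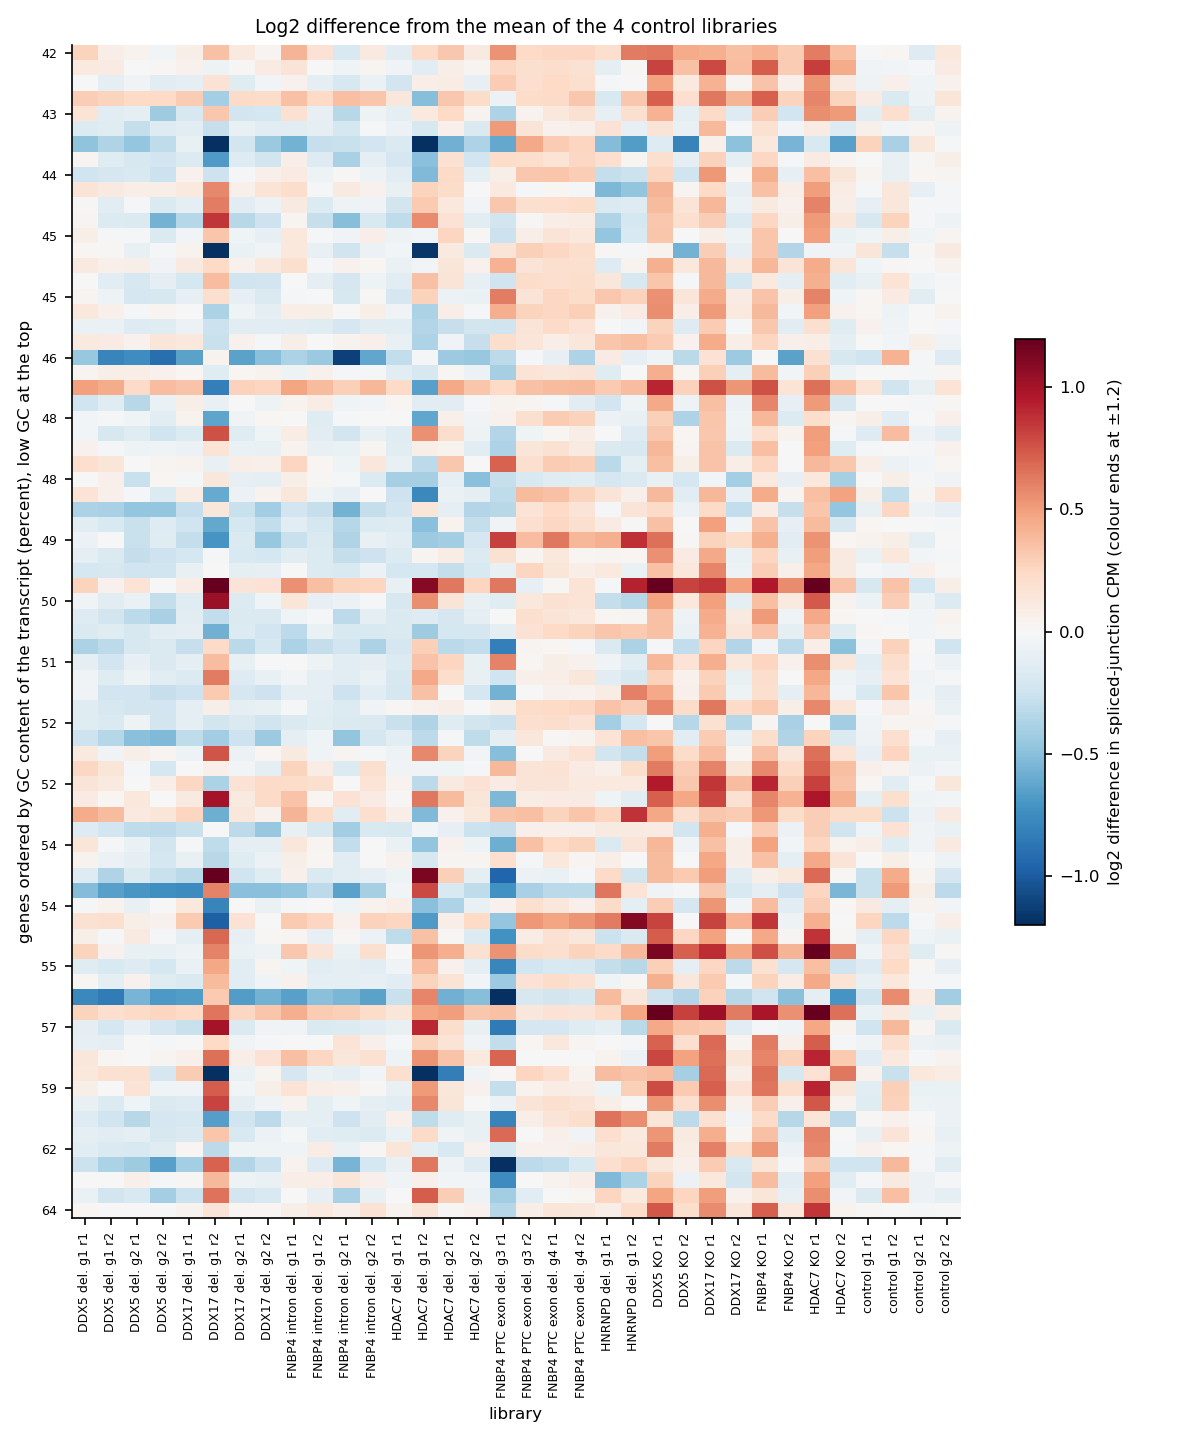
Heat map of the deviation of each ribosomal protein gene (rows, unnamed and ordered by transcript GC content with low GC at the top) from the control mean in each of the 34 libraries (columns), in log2 units with colours ending at ±1.2. Replicate 2 of hgRNA 1 for the DDX17 deletion and the HDAC7 deletion shows the widest spread, with an interquartile range of 0.89 and 0.72.

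Introns of the members were nearly always removed. Of 353 member introns 330 had 20 or more reads in every library. Their median retention in controls was 0.29%, against 1.47% over the 23134 introns tested. The 23134 also needed a mean of at least 1 read of the rarer form, a limit not set for the 330 (327 passed it). That limit removes introns with few retained reads, so the 2 medians come from unlike sets. Of the 330, 255 were below 1% and 16 above 10%. Of those 16, 14 were first introns, though 57 of the 330 introns were, and 11 lay before the coding sequence, where 22 of the 330 lie. The most retained were 1 intron each of RPS20 (99.9%), RPL17 (95.6%), the stalk gene RPLP0 (77.2%), RPL41 (74.7%) and RPL9 (73.1%). These are introns as annotated, and reads inside them can also come from transcripts that start there. Annotated snoRNAs lie in 57 introns of 28 members. Besides introns, 92 member events were tested, and 29 of them were used at 10 to 90% in controls, such as the 2 forms of a 5′ splice site of RPS14 that differ by 6 bases (25.2% and 74.8%).

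In the DDX5 deletion 4 member introns were called more retained and none less, of 327 tested, where 0.195% of all introns were called more retained. Over all kinds of events 4 of 419 member events were called (0.185% of all events), and 2 of them by 10 points or more (0.0385% of all events). Of the 327 member introns 308 were more retained on average, with a median change of 0.83 in the log2 ratio of retained to spliced reads, against 0.41 over all introns. The same count was 251 in the DDX17, 234 in the FNBP4 intron and 161 in the HDAC7 deletion. It was 65 in the FNBP4 PTC exon and 77 in the HNRNPD deletion, and 47 to 102 in the knockouts. All rest on the same 4 controls, so such a shared direction is not shown to be particular to the DDX5 deletion. RPL13 intron 1 (chr16:89560713-89560939, 227 bases, before the coding sequence) was retained at 52.0, 54.7, 62.9 and 46.0% in the DDX5 deletion, against 27.0, 22.7, 27.2 and 34.9% in controls. RPL36 intron 1 (chr19:5690328-5690505, 178 bases, before the coding sequence) was retained at 47.2, 49.1, 56.3 and 57.4%, against 30.9, 17.1, 22.4 and 38.6% in controls. In both, every DDX5 deletion library lay above all 4 controls. The means were 53.9 ± 7.01% and 28.0 ± 5.08% for RPL13 (SD, n = 4 each, log2 ratio change 1.60, SE 0.313, adjusted p = 0.034) and 52.5 ± 5.11% and 27.2 ± 9.46% for RPL36 (1.61, SE 0.34, adjusted p = 0.0493).

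The ends of these introns are shown for their composition, since the whole introns hold 73.1% (RPL13) and 68.0% (RPL36) G and C, against a median of 52.3% over the 157 member introns with a sequence in GENCODE transcripts. Among those 157, 15 were as rich in G and C as the RPL36 intron. Each line gives the first or last 30 bases of the intron in GRCh38 on the plus strand, and capitals mark the outermost 2 bases. The RPL13 ends are at chr16:89560713-89560742 and chr16:89560910-89560939, the RPL36 ends at chr19:5690328-5690357 and chr19:5690476-5690505.
RPL13 intron 1, first bases: GTgagggagactgggtcctggcctttgggc
RPL13 intron 1, last bases: gcctctcactcgctcccctctcgtccgcAG
RPL36 intron 1, first bases: GTaagtggtttcccgcactgccggtatccg
RPL36 intron 1, last bases: tccgccccttctccccgtcgctgtccgcAG

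The other introns called in the DDX5 deletion were retained far less. RPL4 intron 1 (chr15:66503530-66504787) was at 2.91, 5.73, 4.46 and 4.81%, against 0.77, 0.17, 0.86 and 1.2% in controls (log2 ratio change 2.71, adjusted p = 0.0372). RPSA intron 5 (chr3:39411778-39411895) was at 0.20, 0.09, 0.15 and 0.35%, against 0.04, 0.01, 0.02 and 0.03% in controls (2.22, adjusted p = 0.0449). Of the 4 introns 3 are first introns, and none holds an annotated snoRNA. All 4 calls were lost with a pseudocount of 0.5 (adjusted p = 0.0805 to 0.112) and without the 3 replicate 2 libraries that stood apart (adjusted p = 0.149 to 0.204), at log2 ratio changes of 1.33 to 2.79. Leaving out any 1 library left 0 to 2 of the 4 called.

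The retention of RPL13 and RPL36 was not shown to be particular to the DDX5 deletion. RPL13 intron 1 averaged 48.1% in the DDX17 deletion, 51.9% in the FNBP4 intron deletion and 46.9% in the HDAC7 knockout, and RPL36 intron 1 47.1, 47.7 and 42.5%, none of them called. Between the DDX5 and DDX17 deletions the log2 ratio differed by 0.34 (adjusted p = 0.797) for RPL13 and 0.31 (adjusted p = 0.837) for RPL36. The lowest were the HNRNPD deletion libraries, at 15.6 ± 3.25% for RPL13 and 14.3 ± 0.552% for RPL36 (SD, n = 2), which were not called either (adjusted p = 0.846 and 0.871). RPSA intron 5 was more retained in the DDX5 deletion than in the DDX5 knockout (2.90, adjusted p = 0.0279), a comparison in which 0.735% of all events were called. No member event was called by limma in the other 9 edits, where at most 0.0577% of all events were called. In those 9 edits, 5 to 58 of the 419 member events had an unadjusted p under 0.05.

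**Figure D5:**
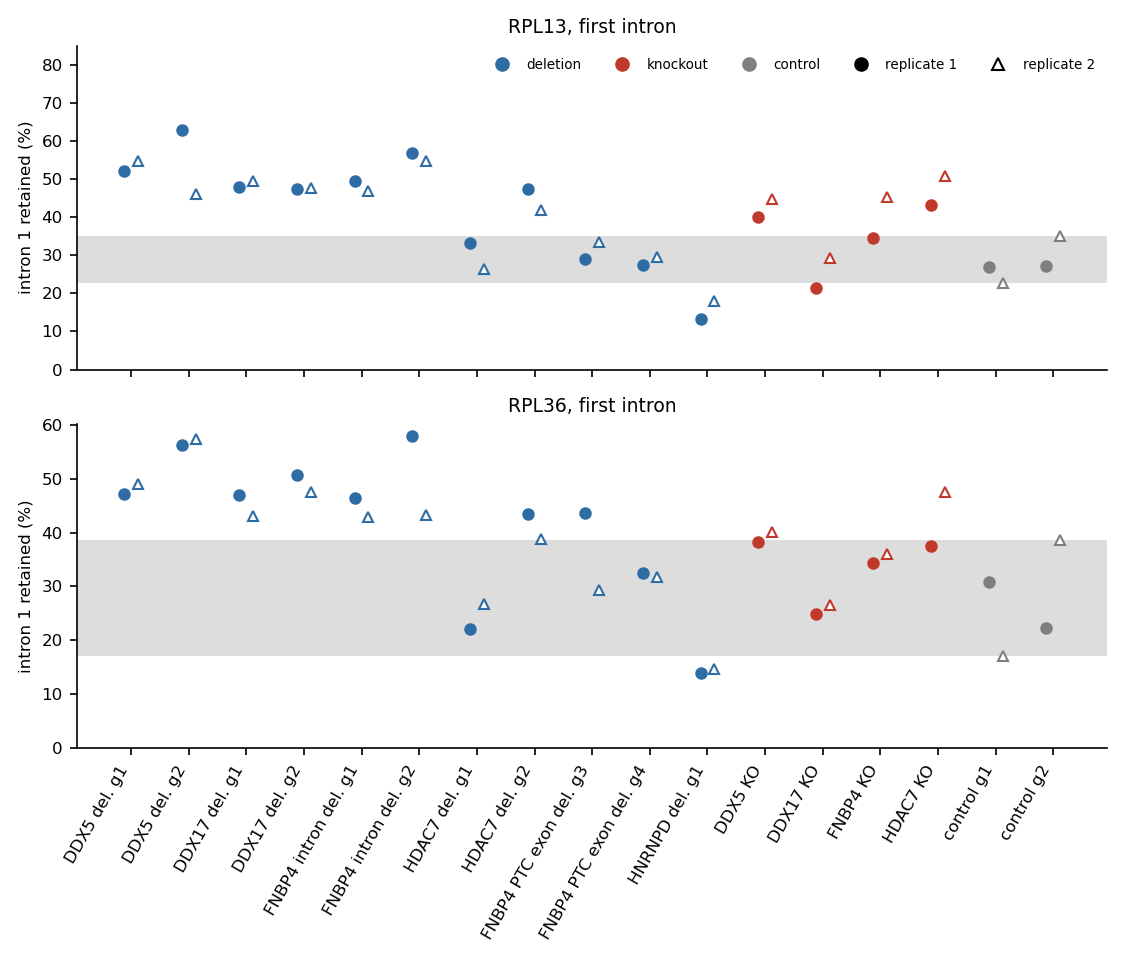
Retention (percent) of RPL13 intron 1 and RPL36 intron 1 in each library, by hgRNA, with filled circles for replicate 1, open triangles for replicate 2 and a grey band for the range of the controls. The 4 DDX5 deletion libraries lie at 46.0 to 62.9% and 47.2 to 57.4%, above all 4 controls at 22.7 to 34.9% and 17.1 to 38.6%.

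Summed over a gene's introns, unspliced reads were also compared in the DDX5 deletion. The intron read share sets the mean of the reads across the 2 exon borders of each intron against the spliced reads of a gene. Its change against controls was positive for 75 of 77 members with a median log2 change of 0.74, against 0.33 over all genes. In the DDX17, FNBP4 intron and HDAC7 deletions 66, 62 and 40 members were positive. In the FNBP4 PTC exon and HNRNPD deletions 6 and 11 were, with medians of -0.45 and -0.36, against -0.08 and -0.003 over all genes. Over the members together the intron read share was 0.389, 0.370, 0.400 and 0.394% in the DDX5 deletion, against 0.277, 0.267, 0.258 and 0.266% in controls. All 4 deletion libraries were above all controls. By gene, 3 of 77 were called higher (1.38% of all genes): RPS29 (1.71, adjusted p = 0.00988, 3.33% in the deletion and 0.965% in controls), RPL27A (1.48, adjusted p = 0.0327) and RPL35A (1.16, adjusted p = 0.047). RPS29 thus had fewer spliced reads and a higher share of unspliced reads in the same 4 libraries. The share is set against those same spliced reads, so a fall in them raises it, and these results are not independent. Leaving out any 1 library left 0 or 1 of the 3 called, and without the 3 replicate 2 libraries that stood apart none was called.

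In the knockouts the share went the other way in replicate 1. The members' share was 0.137, 0.154, 0.153 and 0.140% in the DDX5, DDX17, FNBP4 and HDAC7 knockout libraries of replicate 1, and 0.229, 0.290, 0.349 and 0.255% in replicate 2. Over all genes replicate 1 of the knockouts was low too, at 0.277 to 0.349%, against 0.666 to 0.809% in controls. The libraries with the highest share of spliced reads from the members were thus also those with the fewest intron reads, in the members and elsewhere, and the part of this in the members' values was not tested. In the DDX5 deletion 38 members were called higher in intron read share than in the DDX5 knockout (13% of all genes). Without the knockout libraries of replicate 1 there were 14 (1.5% of all genes in either direction), with a median of 0.86 against 0.32 over all genes. In the FNBP4 PTC exon deletion against both FNBP4 knockout libraries no member was called (3.89% of all genes), with 29 of 77 positive and a median of -0.18. Against replicate 2 of that knockout alone the median was -1.08, against 0.01 over all genes. That value rests on a single library, which had the highest members' share of all knockout libraries, 0.349%. In the FNBP4 PTC exon deletion 1 member was called lower than controls, RPL35 (-1.2, adjusted p = 0.0323, 0.0911% of all genes). Against the FNBP4 intron deletion 4 were lower, RPL13, RPL27, RPL35 and RPL38 (0.397% of all genes).

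Genes that work around the ribosome were counted in the same fits, and higher or lower in these counts means called. Of 35 ribosome assembly factors tested, 16 were higher in the DDX5 deletion and none lower (median 0.30, with 7.81% of all genes higher and 9.17% lower), among them RRP12 (0.42, adjusted p = 0.00226), GTPBP4 (0.45, adjusted p = 0.00233) and BYSL (0.39, adjusted p = 0.00288), where the ribosomal proteins had a median of -0.09. In the FNBP4 PTC exon deletion 11 assembly factors were lower and none higher (13.1% and 13.7% of all genes), with NOP2, which methylates ribosomal RNA, at -0.63 (adjusted p = 1.64e-05). In the HNRNPD deletion 8 were lower and none higher (4.22% and 4.68% of all genes), or 13 without the 3 replicate 2 libraries that stood apart (6.97% of all genes lower), with the subunit maturation factor SBDS at -0.70 (adjusted p = 0.000468). In the knockouts of DDX5, DDX17, FNBP4 and HDAC7, 7, 1, 13 and 7 were higher and none lower, against 6.38%, 0.985%, 4.83% and 4.15% of all genes higher. Without the 4 knockout libraries of replicate 1 these counts were 0, 0, 3 and 0 (1.04%, 0.116%, 1.12% and 0.323% of all genes higher), with medians of 0.26, 0.18, 0.34 and 0.30. Of 20 translation factors with oligopyrimidine mRNAs, 8 were higher and none lower in the FNBP4 PTC exon deletion (median 0.29, with 13.7% of all genes higher), with EIF3E at 0.54 (adjusted p = 0.000425). In the same deletion CDKN1A, the p53 target that stops the cell cycle, was at -1.81 (adjusted p = 2.38e-06) and RPL22L1, the paralogue of RPL22, at -0.74 (adjusted p = 0.00783). Whether these lists differ from the ribosomal proteins was not tested.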

How the data were processed

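Total RNA of 34 libraries was analysed from a vast-tools table of 721536 splicing events; its percent spliced in and its read counts per library were deposited by the authors. RPKM per hgRNA, with replicates combined, and the log2 fold changes, p-values and FDR against controls come from the authors' deposited expression table. Per the submitters' processing notes Salmon 1.10 and edgeR were used, without stated roles. Which genome build was used, and whether counting used strand, is not given in the sources used here. All 353 member introns match GENCODE v29 on GRCh38. The columns of 2 further libraries were not analysed here.

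Spliced reads of the intron rows, all whole numbers, were summed per gene, filtered (10 counts at median depth in 2 libraries, 15 in total), scaled by TMM (factors 0.8981 to 1.061) and fitted with limma 3.58.1 (voom, R 4.3.3) over 17 hgRNA groups. Each edit was compared with the 4 control libraries. Residual degrees of freedom were 17, and 12081 genes shared one Benjamini-Hochberg adjustment. Such a p measures the spread between replicate pools.

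Events needed 20 reads in each library and were tested with limma on log2((inclusion + 1)/(exclusion + 1)), with a variance trend on coverage. A mean of at least 1 read per library for the rarer form was required too, a limit added because simulated data gave false calls below it. This left 51979 events. Intron read share per gene was tested in the same way. The step was tested on simulated data with known changes.

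The members and the lists of other genes were chosen with earlier results of these data known. Named members follow a fixed rule (up to 6 called per direction and comparison, a set of well-known members, the ends of the RPKM order), and members named to complete a short count, or as the widest, steadiest or most often shifted, were chosen after their values were seen. Companion genes are up to 3 called per list. Some members that the rule names are not reported here, and counts include them. Lists of RNA polymerase I genes, snoRNA hosts and mitochondrial ribosomal protein genes were counted as well.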

Additional observations from a re-analysis of the deposited data

Results flagged for a closer look

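Among groups of 4 libraries, 5 of 41 held a library far from the other 3, by a test that flags about 1 in 20 groups by chance. DDX17 deletion hgRNA 1 replicate 2 drew 6.847% of its spliced reads from the members (5.404 to 5.53% in the other 3), and FNBP4 PTC exon deletion hgRNA 3 replicate 1 drew 5.194% (6.133 to 6.194%). Control hgRNA 1 replicate 2 drew 6.324% (5.618 to 5.666%). RPL22 stood at 408.1 CPM in FNBP4 PTC exon deletion hgRNA 3 replicate 1 (331.3 to 335.0 CPM in the others), and RPL9 at 1357 CPM in control hgRNA 2 replicate 2 (1232 to 1245 CPM).

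Edits of the same gene differed in limma's direct test. Between the PTC exon deletion and the intron deletion of FNBP4, 8 members differed on the log2 scale: RPS27 by 0.7748, RPS15A by 0.3623, RPL36A by 0.3573, RPL23 by 0.3541, RPL23A by 0.3331, RPS6 by 0.3187, RPL34 by 0.3158 and RPL10 by 0.2854. In intron read share 4 differed. Over all genes 30.3% were called in this comparison, a larger share than among the members, and 1.15% in intron read share.

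Between the DDX5 deletion and the DDX5 knockout 5 members differed: RPS16 by -0.8902, RPS14 by -0.8411, RPL10 by -0.5915, RPS13 by -0.5294 and RPL9 by -0.5218. In intron read share 38 did. For DDX17 there were 7: RPS27 by -0.6447, RPS15A by -0.5692, RPL9 by -0.5564, RPL23A by -0.55, RPL10 by -0.4885, RPL38 by -0.4699 and RPL19 by -0.434. RPS14 differed by -0.5626 between the FNBP4 PTC exon deletion and the FNBP4 knockout, the 1 member called there. For HDAC7 there were 5, among them RPS24 by -0.733, RPL9 by -0.657, RPS14 by -0.617 and RPS7 by -0.5111. Over all genes 4.43% were called for DDX5 (13.4% in intron read share), 8.83% for DDX17, 30.5% for the FNBP4 PTC exon and 6.55% for HDAC7. Differences from the knockouts include the libraries of replicate 1, and without them the counts were as given above.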

How the results depend on the processing

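Counts of called members moved with the libraries in the fit more than with the scaling. Median-of-ratios size factors and TMM without the members moved no count by over 1.5 times. Over all alternatives other than leaving out a library 231 of 312 counts were within 1.5 times of the value given, and 401 of 562 single values kept their direction and their side of the threshold, while 160 lost their call. Leaving out 1 library at a time, 176 of 290 counts were within 1.5 times, and 159 of 374 single values kept their call while 215 lost it. RPL10 in the DDX5 knockout turned to -0.0271 with the median over introns. The cause of the moves was not tested. Where a count is given below without the share of all genes called, its rise or fall says nothing particular about the members.

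Leaving out 1 library at a time gave 0 to 5 called members in the DDX5 deletion, 0 to 6 in the DDX17 deletion, 0 to 1 in the FNBP4 intron deletion, 0 to 10 in the FNBP4 PTC exon deletion, 0 in the HDAC7 deletion and 0 to 1 in the HNRNPD deletion. In the knockouts of DDX5, DDX17, FNBP4 and HDAC7 it gave 0 to 8, 0 to 3, 0 to 5 and 0 to 12. Between edits it gave 1 to 10 (FNBP4 PTC exon against intron deletion), 0 to 15 (DDX5 against DDX17 deletion), and, for deletion against knockout, 0 to 9 (DDX5), 0 to 21 (DDX17), 1 to 7 (FNBP4 PTC exon) and 0 to 8 (HDAC7). Splicing events called ranged from 0 to 2 in the DDX5 deletion and 0 to 1 in the FNBP4 PTC exon deletion. Intron read share gave 0 to 1 in the DDX5 and FNBP4 PTC exon deletions, 0 to 17, 0 to 19 and 0 to 4 in the DDX5, FNBP4 and HDAC7 knockouts and 0 to 3 between the FNBP4 deletions. For deletion against knockout the intron read share gave 0 to 58 (DDX5), 0 to 5 (DDX17), 0 to 2 (FNBP4 PTC exon) and 0 to 2 (HDAC7).

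With no filter on low counts the DDX5 deletion had 1 call, the FNBP4 intron deletion 0, the HNRNPD deletion 1, the FNBP4 PTC exon against intron deletion 5 and the DDX17 deletion against knockout 3. limma without voom weights gave 0 in the FNBP4 intron deletion. With a trend on GC content and length removed from each library the FNBP4 intron deletion had 0 calls, the knockouts of DDX5, DDX17, FNBP4 and HDAC7 15, 4, 8 and 11, and the deletions against knockouts of DDX17, FNBP4 PTC exon and HDAC7 13, 4 and 9. With the median over introns there were 0 in the FNBP4 intron deletion, 1 in the HNRNPD deletion, 2, 0 and 0 in the DDX5, DDX17 and FNBP4 knockouts, 4 between the FNBP4 deletions, and 1, 0, 0 and 3 for deletion against knockout of DDX5, DDX17, FNBP4 PTC exon and HDAC7.

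With only the libraries of the comparison in the fit the DDX5 deletion had 23 calls (3 higher, 20 lower, with 32% of all genes called in that fit), the FNBP4 intron deletion 9 (9.38%), the HNRNPD deletion 8 (11%), the DDX17, FNBP4 and HDAC7 knockouts 0, 1 and 2 (0.147%, 2.75% and 1.45%), and the FNBP4 deletions against each other 17 (35%). Deletion against knockout then gave 35, all lower, for DDX5 (16.9%) and 0 for DDX17, the FNBP4 PTC exon and HDAC7.

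Same-numbered libraries did not deviate together throughout, so the numbers were not taken as a pairing. Their correlation was above 0.1 in 28 of 136 group pairs, with a median of -0.00638, while all 6 pairs of knockouts did (0.369 to 0.497), as did all 3 pairs among control, DDX17 and HDAC7 hgRNA 1 (0.518 to 0.663). With a replicate block the FNBP4 PTC exon deletion had 5 calls, the HNRNPD deletion 4, the FNBP4 knockout 4, the DDX17 deletion against knockout 14, the FNBP4 PTC exon deletion against knockout 2 and intron read share in the DDX5 deletion 6. The block changed no other count by over 1.5 times.

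At 50 reads per event or gene the intron read share had 1 call in the DDX5 deletion, 0 in the FNBP4 PTC exon deletion and 0 between the FNBP4 deletions. A pseudocount of 0.5 gave 1, 0 and 1 there, and 0 splicing events in the DDX5 deletion. A variance trend on coverage gave 0 in the FNBP4 PTC exon deletion and 1 between the FNBP4 deletions. With no minimum for the rarer form, a choice made after seeing the data, events called were 10 in the DDX5 deletion, 2 in the FNBP4 PTC exon deletion and 1 in the DDX5 knockout.

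The alternatives that left out libraries that stood apart were also chosen after seeing the data. Without the 3 libraries of replicate 2 the DDX5 deletion had 1 call, the FNBP4 intron deletion 0, the HNRNPD deletion 7, the DDX5, FNBP4 and HDAC7 knockouts 13, 5 and 11, the FNBP4 deletions against each other 13, and deletion against knockout 17 for DDX5 and 4 for the FNBP4 PTC exon. Over all genes 7.43% were then higher and 6.97% lower in the HNRNPD deletion, and 19.6% and 20.2% between the FNBP4 deletions. In the DDX5, FNBP4 and HDAC7 knockouts 8.23%, 5.8% and 6.21% were higher and 4.92%, 4.18% and 3.32% lower. For deletion against knockout it was 4.32% and 6.77% (DDX5) and 19.1% and 20.4% (FNBP4 PTC exon). Leaving out these 3 libraries gave 0 events and 0 calls of intron read share in the DDX5 deletion. In the FNBP4 PTC exon deletion it gave 0 calls of intron read share. Without those and the 4 knockout libraries of replicate 1 the HDAC7 knockout had 3, and deletion against knockout 9 (DDX5), 4 (DDX17), 10 (FNBP4 PTC exon) and 3 (HDAC7). Without the 4 alone the knockouts of DDX5, DDX17, FNBP4 and HDAC7 had 1, 0, 0 and 1, and deletion against knockout 0, 0, 2 and 1. For intron read share the members' median was then 0.86 for the DDX5 deletion against knockout. It was -1.08 for the FNBP4 PTC exon deletion against knockout, and each of these knockouts was then a single library. Groups of 2 libraries limit the knockouts, and introns retained under 1% rest on few reads.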
